A study of Homo sapiens with 6 samples.

Results

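The genes of cholesterol and fatty acid synthesis were compared between AC16 cells treated for 48 h with 100 nM doxorubicin (3 libraries) and AC16 cells treated for 48 h with the vehicle, 0.1% DMSO (3 libraries). The set was a list of 31 named genes out of 58299 gene IDs in the count table: 18 enzymes of sterol synthesis, 8 enzymes of fatty acid synthesis and 5 genes that control the SREBP transcription factors. The list does not hold every enzyme of either pathway. AC16 is an established human line with a mixed origin that includes ventricular cardiomyocytes. Doxorubicin is an anthracycline drug that traps type II topoisomerases on DNA. Both groups grew in medium with fetal bovine serum, which carries lipoprotein cholesterol. The series title names an NRF2 activator, CDDO-Me, but the labels give it to neither group. No DMSO percentage is recorded for the doxorubicin group. Whether the 3 libraries per group came from separate cultures is not in the labels, so p-values here measure only the scatter among these samples, which could be technical.

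Cells build cholesterol from acetyl-CoA through mevalonate, isoprenoids, squalene and lanosterol, and they build palmitate from the same acetyl-CoA before elongating and desaturating it. Both routes are controlled by SREBP proteins, which are made as membrane precursors in the endoplasmic reticulum. When membrane cholesterol is low, the escort SCAP carries them to the Golgi, where proteases release the active factor. When cholesterol is high, INSIG proteins hold SCAP back. SREBP2, from SREBF2, acts mainly on sterol genes and SREBP1, from SREBF1, mainly on fatty acid genes.

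Because most members fell, the promoters of the members were searched for sequence in common. RefSeq windows (GRCh38.p14) from 250 bases before to 50 after a gene's start were matched by symbol to 27 of the 31 members, with no entry for FDFT1, FASN, ACAT2 and SQLE. Some genes have more than 1 window. The motifs were searched on both strands: the sterol regulatory element TCACNCCAC, the CCAAT box CCAAT, the GC box GGGCGG and the E-box CACGTG. None of these strings contains another. The 5 windows below belong to the SREBP2 gene, to 3 members with large decreases and to the member with the largest increase. Capitals mark CCAAT, its reverse complement ATTGG, and TCACNCCAC.
SREBF2, chr22:41832855-41833154, plus strand: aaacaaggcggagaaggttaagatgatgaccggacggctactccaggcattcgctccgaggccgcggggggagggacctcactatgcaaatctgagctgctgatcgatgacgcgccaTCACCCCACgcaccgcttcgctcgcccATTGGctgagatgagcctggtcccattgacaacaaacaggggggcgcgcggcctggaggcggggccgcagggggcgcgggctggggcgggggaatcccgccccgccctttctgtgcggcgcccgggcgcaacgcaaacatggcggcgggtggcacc
INSIG1, chr7:155297628-155297927, plus strand: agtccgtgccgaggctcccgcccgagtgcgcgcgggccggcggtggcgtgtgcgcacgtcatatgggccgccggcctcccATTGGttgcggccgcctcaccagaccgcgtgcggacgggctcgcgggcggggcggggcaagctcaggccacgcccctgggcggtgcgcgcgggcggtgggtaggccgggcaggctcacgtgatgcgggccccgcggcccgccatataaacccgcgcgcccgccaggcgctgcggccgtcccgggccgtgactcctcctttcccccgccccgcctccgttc
LSS, chr21:46228725-46229024, minus strand: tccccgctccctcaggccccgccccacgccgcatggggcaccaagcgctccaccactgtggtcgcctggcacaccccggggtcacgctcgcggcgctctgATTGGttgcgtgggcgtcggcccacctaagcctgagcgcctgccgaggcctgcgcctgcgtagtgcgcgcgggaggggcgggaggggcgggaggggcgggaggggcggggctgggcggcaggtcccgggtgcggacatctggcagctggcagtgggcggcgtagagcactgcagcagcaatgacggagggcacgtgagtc
SCD, chr10:100346983-100347282, plus strand: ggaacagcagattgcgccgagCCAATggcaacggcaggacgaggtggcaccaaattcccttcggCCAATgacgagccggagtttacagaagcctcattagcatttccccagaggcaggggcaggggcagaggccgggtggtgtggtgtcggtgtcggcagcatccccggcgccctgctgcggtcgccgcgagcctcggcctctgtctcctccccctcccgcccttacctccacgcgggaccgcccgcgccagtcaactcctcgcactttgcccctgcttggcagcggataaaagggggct
TM7SF2, chr11:65111622-65111921, plus strand: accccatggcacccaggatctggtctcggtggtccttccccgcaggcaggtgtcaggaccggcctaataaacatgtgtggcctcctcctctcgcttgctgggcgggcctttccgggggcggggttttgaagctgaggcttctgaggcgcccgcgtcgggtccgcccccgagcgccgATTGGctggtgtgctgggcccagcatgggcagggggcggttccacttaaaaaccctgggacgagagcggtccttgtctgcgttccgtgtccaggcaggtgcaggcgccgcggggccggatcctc

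The exact sterol element was found in 1 member, SREBF2, as TCACCCCAC starting at position -133 from the start site. Among all 27305 genes with a window, 1.39% held it. The CCAAT box was found in 20 of the 27 members, against 42.6% of the 11205 tested genes with a window. By single windows it was in 24 of 38 of the members' windows and in 34.3% of the tested genes' windows. The GC box was in 26 members and in 76.3% of tested genes, and the E-box was in 4 members and in 12.3% of tested genes. SCD held 2 CCAAT boxes, at positions -229 and -186. Among members with a window, 17 of the 21 that fell held a CCAAT box. Of the 3 that rose, TM7SF2 and HSD17B7 held one and FADS1 did not. Among those not called, ACLY held one and PMVK and SREBF1 did not. These matches describe letters in the windows and show no binding. Only the given strings within these windows were searched, so a member without a match was not shown to lack a sterol element.

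Column totals were 17252862 to 19571731 counts. Values below are CPM (counts scaled to library size with TMM factors), as mean ± SD with n = 3 where a mean is given. The threshold for calling a gene was an adjusted p under 0.05 in edgeR's quasi-likelihood test over 15358 genes that passed the expression filter, and all 31 members passed it. Across genes, log2 CPM of libraries from 1 group correlated at 0.991 to 0.994. Some libraries lay to 1 side of the mean of their group's other libraries in 23 or more of the 31 members. These were doxorubicin replicates 1 and 3 and DMSO replicates 2 and 3. The values are given after the branches. None of 10 cardiomyocyte markers passed the filter, and their summed level was 0.671 to 1.38 CPM in DMSO and 0.897 to 1.48 CPM in doxorubicin; TNNT2 had 7 counts in the 6 libraries together. All 8 fibroblast markers passed, and their summed level was 13792 to 16262 CPM in DMSO and 4412 to 6865 CPM in doxorubicin. By mean CPM, 6 of the 8 were lower in doxorubicin. The sum was carried by COL1A1 (9864 to 3156 CPM), whereas DCN (16.2 to 22.7 CPM) and FAP (60.1 to 63.2 CPM) were higher. The part of these markers in the results below was not tested. In bulk RNA, fewer cells of a kind and less RNA per cell cannot be told apart.

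Most of the synthesis genes were lower after doxorubicin. Of the 31 members, 24 fell, 3 rose and 4 were not called, and the median log2 fold change was -0.76. Among all tested genes, 32.0% fell, 32.7% rose and the median was -0.0013. At least 2-fold decreases were seen in 9 members, against 6.26% of tested genes, and an increase of that size in 1 member, against 14.2%. The values of the groups did not overlap in 28 of the 31 members, against 69.1% of tested genes. In total 64.7% of tested genes were called, so a call alone was common in these data. The members' share of decreases was above that background, while their share of increases was below it.

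**Figure D1:**
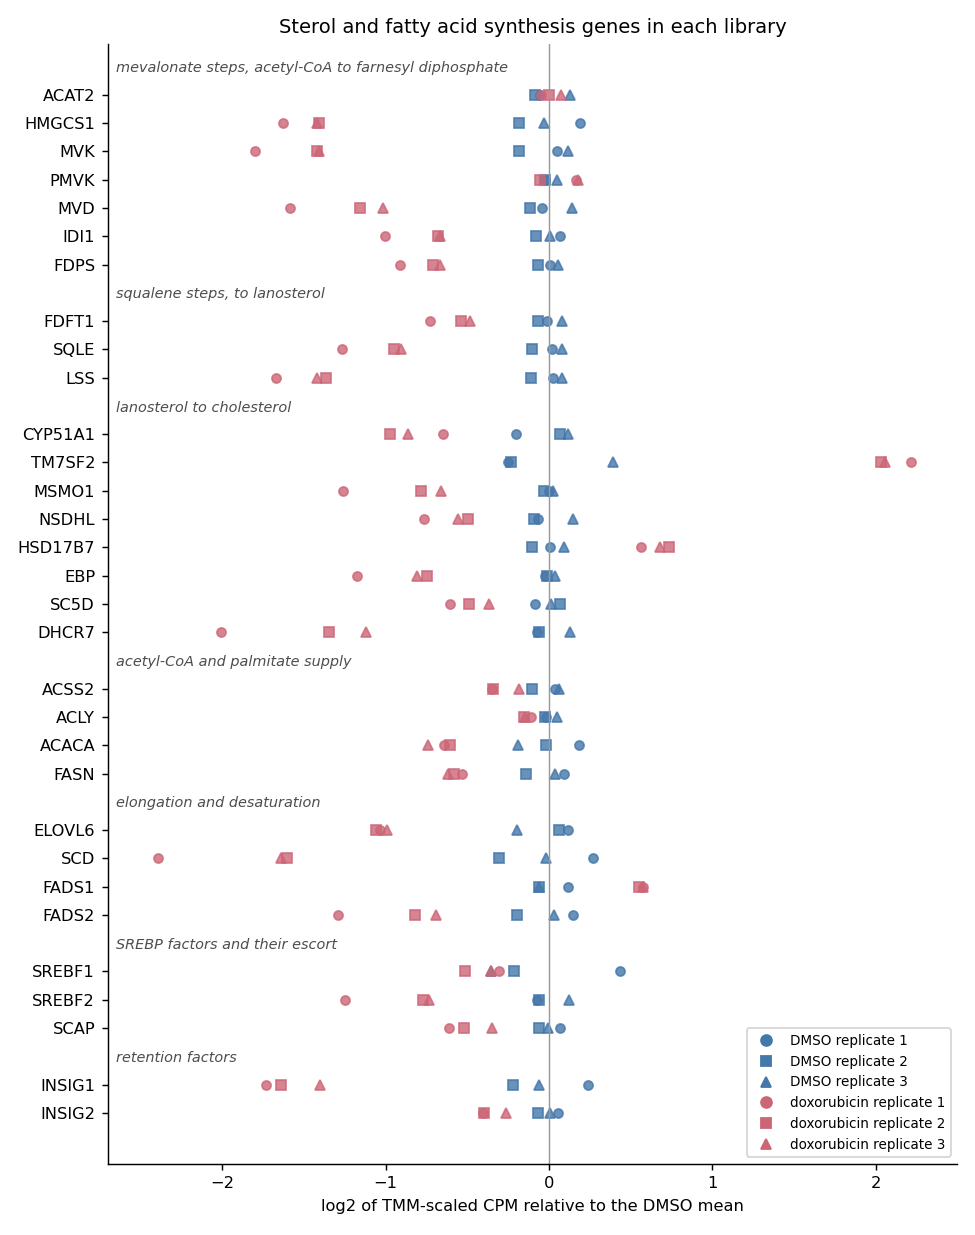
Level of each of the 31 members in each library, as the log2 of TMM-scaled CPM relative to the DMSO mean (horizontal axis), with genes ordered by their step in the pathway; blue points are DMSO libraries, red points doxorubicin libraries, and the shape gives the replicate. Most red points lie left of the blue ones, TM7SF2, HSD17B7 and FADS1 lie to the right, and doxorubicin replicate 1 (red circles) is the leftmost point in 20 of the 24 members that fell.

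The first stage of sterol synthesis runs from acetyl-CoA to farnesyl diphosphate. Of its 7 genes, 5 fell and 2 were not called, with a median log2 fold change of -0.78. HMGCS1 (chr5:43289395-43313512, GRCh38), the synthase that makes HMG-CoA, had 185, 143 and 159 CPM in DMSO replicates 1 to 3 and 52.4, 61.3 and 60.6 CPM in doxorubicin replicates 1 to 3. The lowest DMSO library was more than double the highest doxorubicin library, and the gene fell 2.79-fold (log2 fold change -1.48 ± 0.09 SE, adjusted p = 8.7e-09, edgeR). An opposite-strand gene with 14 counts overlaps 14.95% of its exon bases.

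MVK (chr12:109573255-109598117), mevalonate kinase, had 68.6, 58.6 and 72.1 CPM in DMSO and 19.1, 24.8 and 25.1 CPM in doxorubicin. It fell 2.89-fold (adjusted p = 1.3e-08), the largest decrease among the sterol enzymes, and MMAB on the opposite strand overlaps 4.72% of its exon bases. PMVK (chr1:154924734-154936991), the kinase of the next step, had 34.8, 34.7 and 36.7 CPM in DMSO and 39.8, 34.1 and 40.1 CPM in doxorubicin. Its groups overlapped and it was not called (log2 fold change 0.10 ± 0.08 SE, adjusted p = 0.3). MVD (chr16:88651935-88663161), the decarboxylase that follows PMVK, had 121, 116 and 138 CPM in DMSO and 41.8, 56.1 and 61.9 CPM in doxorubicin, and fell 2.35-fold (adjusted p = 5.8e-05). Thus the steps on either side of PMVK fell more than 2-fold.

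IDI1 (chr10:1039152-1049170), the isomerase of isopentenyl diphosphate, fell 1.71-fold from 117 ± 6.02 to 68.5 ± 8.65 CPM. FDPS (chr1:155308748-155320666), which joins isoprene units into farnesyl diphosphate, fell 1.69-fold from 137 ± 5.95 to 81.1 ± 7.23 CPM. FDPS has 8 annotated processed copies, and each had 11 or fewer counts in all libraries together, against 11978 for the gene. RUSC1-AS1 on the opposite strand, with 395 counts, overlaps 18.6% of its exon bases. ACAT2 (chr6:159760328-159779055), the cytosolic thiolase of the first step, had 165, 162 and 188 CPM in DMSO and 166, 172 and 181 CPM in doxorubicin. Its groups overlapped and its log2 fold change was 0.01 ± 0.07 SE (adjusted p = 0.92). Because 52.3% of its exon bases lie within 3 other genes, the count of ACAT2 is uncertain.

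The squalene steps commit the pathway to sterols. All 3 of their genes fell. FDFT1 (chr8:11795573-11839309), squalene synthase, fell 1.49-fold from 262 ± 13.9 to 175 ± 15.4 CPM. SQLE (chr8:124998497-125022283), squalene epoxidase, had 134, 123 and 140.3 CPM in DMSO and 55.1, 68.7 and 70.8 CPM in doxorubicin, and fell 2.04-fold (adjusted p = 9e-08). LSS (chr21:46188141-46228824), which closes the rings to form lanosterol, had 205, 186 and 213 CPM in DMSO and 63.2, 78.2 and 75.4 CPM in doxorubicin. It fell 2.79-fold (adjusted p = 2e-10), the smallest adjusted p of the 31 members.

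From lanosterol to cholesterol, 6 of 8 genes fell and 2 rose. DHCR7 (chr11:71428193-71452868), the reductase that makes cholesterol from its immediate precursor, had 159.5, 161 and 183 CPM in DMSO and 41.6, 66.0 and 77.2 CPM in doxorubicin. The doxorubicin libraries were spread widely but all lay below the DMSO libraries, and the gene fell 2.72-fold (log2 fold change -1.44 ± 0.24 SE, adjusted p = 0.0037, edgeR). EBP (chrX:48521158-48528716), a sterol isomerase, fell 1.86-fold from 90.6 ± 2.10 to 48.6 ± 7.45 CPM. MSMO1 (chr4:165327623-165343160), which begins the removal of methyl groups from the ring, fell 1.84-fold from 116 ± 2.25 to 62.9 ± 13.0 CPM.

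NSDHL (chrX:152830967-152869729), a dehydrogenase of the same demethylation, fell 1.52-fold from 78.0 ± 7.36 to 51.4 ± 4.94 CPM. SC5D (chr11:121292453-121308694), a sterol desaturase, fell 1.40-fold from 47.5 ± 2.61 to 34.1 ± 2.82 CPM, the smallest decrease among the sterol enzymes that were called. CYP51A1 (chr7:92112151-92142952), lanosterol demethylase, had 8.21, 9.89 and 10.2 CPM in DMSO and 6.02, 4.80 and 5.204 CPM in doxorubicin. It fell 1.77-fold (adjusted p = 0.00013), and it was the 1 sterol gene called lower in which doxorubicin replicate 1 was not the lowest. Because 82.2% of its exon bases lie within other genes, mostly LRRD1 on the same strand with 8 counts, its low level is uncertain.

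The sterol enzymes that rose were TM7SF2 and HSD17B7. TM7SF2 (chr11:65111845-65116384) encodes a sterol reductase that acts after CYP51A1. It had 6.48, 6.56 and 10.1 CPM in DMSO and 35.8, 31.6 and 32.1 CPM in doxorubicin, and rose 4.30-fold (log2 fold change 2.10 ± 0.14 SE, adjusted p = 9.8e-09, edgeR). LBR (chr1:225401502-225428925), a nuclear membrane protein that carries the same reductase activity, had 187, 180.0 and 167 CPM in DMSO and 55.6, 63.0 and 69.1 CPM in doxorubicin, and fell 2.84-fold (adjusted p = 8.3e-11).

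The count ratio of TM7SF2 to LBR within a library does not depend on library scaling. It was 0.0349, 0.0366 and 0.0607 in DMSO and 0.644, 0.502 and 0.464 in doxorubicin, a log2 change of 3.64. The groups were fully separated, with exact permutation p = 0.1 (two-sided), the smallest that 3 against 3 can give (0.15 adjusted over the 3 ratios tested). Per kilobase of exon, TM7SF2 reached 9.73 ± 0.674 CPM after doxorubicin and LBR 11.9 CPM, against 2.26 ± 0.607 and 33.8 CPM in DMSO.

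HSD17B7 (chr1:162790702-162812817), a keto-reductase of the demethylation steps, had 19.3, 17.8 and 20.4 CPM in DMSO and 28.4, 31.9 and 30.7 CPM in doxorubicin, and rose 1.58-fold (adjusted p = 7.6e-06). Its near-identical copy HSD17B7P2, looked up for this reason after the values were seen, had 15, 15 and 25 counts in DMSO and 79, 100 and 75 counts in doxorubicin (log2 fold change 2.22 ± 0.25 SE). Reads can be shared between the copies, so the division of the increase between them is uncertain. In the same demethylation steps MSMO1 and NSDHL fell.

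**Figure D2:**
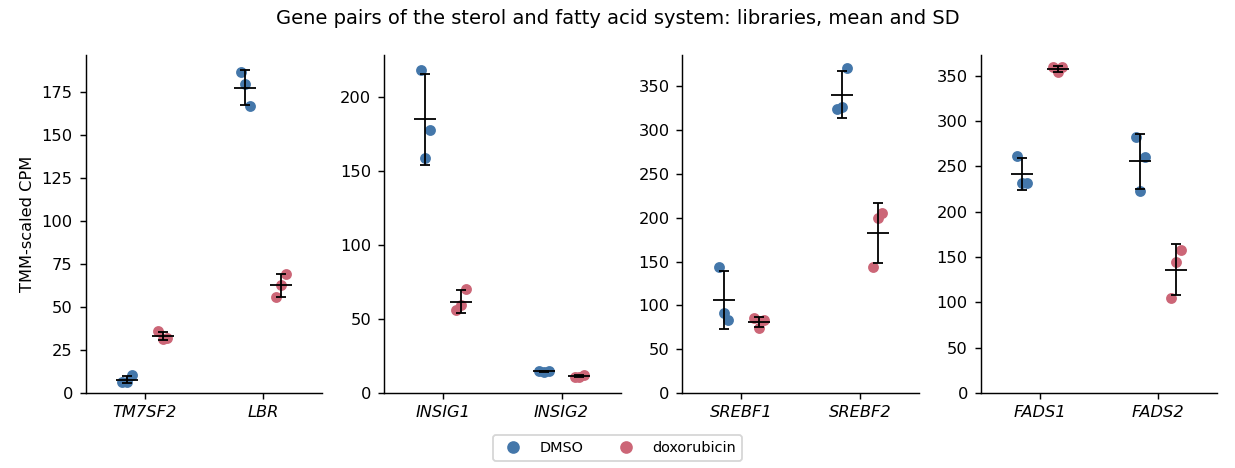
TMM-scaled CPM (vertical axes from 0) of 4 pairs of related genes in each DMSO library (blue) and doxorubicin library (red), with the mean and SD in black. TM7SF2 rose while LBR fell, INSIG1 fell from 185 to 61.7 CPM while INSIG2 went from 14.4 to 11.31 CPM, SREBF2 fell while the SREBF1 libraries overlapped, and FADS1 rose while FADS2 fell.

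Of the 5 genes of SREBP control, 4 fell and SREBF1 was not called. INSIG1 (chr7:155297776-155310235), a retention factor whose own gene is a well-known SREBP target, had 218, 159 and 178 CPM in DMSO and 55.7, 59.3 and 70.2 CPM in doxorubicin. It fell 3.00-fold (log2 fold change -1.58 ± 0.13 SE, adjusted p = 5.5e-06, edgeR). It ranked 265 from the lowest fold change of the 15358 tested genes. INSIG2 (chr2:118088452-118110997), a retention factor with the same role, had 14.98, 13.8 and 14.5 CPM in DMSO and 10.9, 11.0 and 12.03 CPM in doxorubicin, and fell 1.28-fold (adjusted p = 0.0088). The INSIG1 to INSIG2 count ratio was 14.6, 11.5 and 12.2 in DMSO and 5.10, 5.39 and 5.82 in doxorubicin, a log2 change of -1.22 (exact permutation p = 0.1, two-sided). These groups were also fully separated.

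SREBF2 (chr22:41833079-41907308) had 324, 327 and 371 CPM in DMSO and 143, 199.9 and 205 CPM in doxorubicin, and fell 1.86-fold (adjusted p = 0.00043). SREBF1 (chr17:17810399-17837002) had 144, 91.4 and 83.1 CPM in DMSO and 85.9, 74.2 and 83.0 CPM in doxorubicin. DMSO replicate 1 was high, replicate 2 also lay above the doxorubicin libraries, and replicate 3 lay within their range. The log2 fold change was -0.39 ± 0.23 SE (adjusted p = 0.21, edgeR), and -0.11 without DMSO replicate 1. The count table does not separate the isoforms of SREBF1, and 6.92% of its exon bases lie in exons of RAI1 on the opposite strand.

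The SREBF1 to SREBF2 count ratio was 0.444, 0.280 and 0.224 in DMSO and 0.599, 0.372 and 0.405 in doxorubicin. The groups overlapped (exact permutation p = 0.3, two-sided), so a different change in these genes was not shown. SCAP (chr3:47413694-47477126), the escort, fell 1.40-fold from 86.9 ± 3.88 to 61.9 ± 5.70 CPM (adjusted p = 2.6e-05).

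Of the 8 fatty acid enzymes, 6 fell, 1 rose and 1 was not called, and the median log2 fold change was -0.62. The enzymes that supply acetyl-CoA had the smallest differences of this branch. ACLY (chr17:41866908-41930542), which makes cytosolic acetyl-CoA from citrate, had 669, 667 and 701 CPM in DMSO and 630.5, 611 and 614 CPM in doxorubicin. Its groups did not overlap, but the difference was small and narrowly missed the threshold (log2 fold change -0.14 ± 0.06 SE, adjusted p = 0.051, edgeR). ACSS2 (chr20:34872146-34927962), which makes acetyl-CoA from acetate, fell 1.22-fold from 34.3 ± 2.13 to 28.1 ± 1.87 CPM (adjusted p = 0.007).

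The enzymes that turn acetyl-CoA into palmitate had larger decreases. ACACA (chr17:37084988-37406818), acetyl-CoA carboxylase, fell 1.58-fold from 103 ± 13.6 to 65.3 ± 3.01 CPM. FASN (chr17:82078333-82098332), fatty acid synthase, had 784, 666 and 753 CPM in DMSO and 508, 490.1 and 478 CPM in doxorubicin, and fell 1.49-fold (adjusted p = 1.4e-06). The doxorubicin libraries were close together in both genes, and replicate 1 was not the lowest in either.

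Elongation and desaturation held both the largest decrease and the opposite movement. SCD (chr10:100347124-100364834), which makes monounsaturated fatty acids, had 638, 427 and 521 CPM in DMSO and 101, 174 and 169.7 CPM in doxorubicin. It fell 3.56-fold (log2 fold change -1.83 ± 0.29 SE, adjusted p = 0.0042, edgeR), the lowest fold change of the 31 members, although its libraries were spread widely in both groups. ELOVL6 (chr4:110045846-110199199), the elongase of palmitate, had 48.0, 46.3 and 38.7 CPM in DMSO and 21.6, 21.3 and 22.3 CPM in doxorubicin, and fell 2.04-fold (adjusted p = 6e-08).

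FADS1 and FADS2 are neighbouring desaturases of polyunsaturated fatty acids on opposite strands of chromosome 11. FADS1 (chr11:61799625-61829318) had 261, 232 and 231 CPM in DMSO and 359, 354 and 359 CPM in doxorubicin, and rose 1.48-fold (adjusted p = 9e-07). FADS2 (chr11:61792980-61867354) had 282, 223 and 261 CPM in DMSO and 104, 145 and 158 CPM in doxorubicin, and fell 1.88-fold (adjusted p = 0.0033). The FADS1 to FADS2 count ratio was 0.926, 1.04 and 0.887 in DMSO and 3.45, 2.44 and 2.27 in doxorubicin, a comparison made after the values were seen and not tested.

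Overlap with other genes, mostly with each other, covers 5.57% of the exon bases of FADS1 and 4.89% of those of FADS2, and the libraries are unstranded. FADS3 (chr11:61873519-61892051), the next gene of the cluster, had 95.7, 101 and 101 CPM in DMSO and 241, 289 and 303 CPM in doxorubicin, and rose 2.80-fold (adjusted p = 1.4e-10). Of the 3 neighbours, FADS2 alone fell.

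The sterol and fatty acid branches were set side by side. Of 18 sterol enzymes, 14 fell, 2 rose and 2 were not called, with a median log2 fold change of -0.80 and 6 decreases of at least 2-fold. Of the 8 fatty acid enzymes, 2 fell at least 2-fold. Relative to the DMSO mean, the median member of the sterol branch stood at -0.95, -0.73 and -0.66 on the log2 scale in doxorubicin replicates 1 to 3, and that of the fatty acid branch at -0.58, -0.59 and -0.65. The sterol median was the lower of the pair in each doxorubicin library, though by little in replicate 3. By the mean over members, the sterol branch stood at -0.78, -0.57 and -0.51 and the fatty acid branch at -0.71, -0.57 and -0.55, so the order of the branches was not the same by both measures. The difference between branches was not tested.

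Summed per kilobase of exon, the sterol enzymes went from 461 to 513 CPM in the DMSO libraries to 268 to 323 CPM in the doxorubicin libraries. The fatty acid enzymes went from 341 to 404 CPM to 251 to 263 CPM. Both sums were lower in every doxorubicin library than in any DMSO library, and the doxorubicin libraries differed more in the sterol sum.

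**Figure D3:**
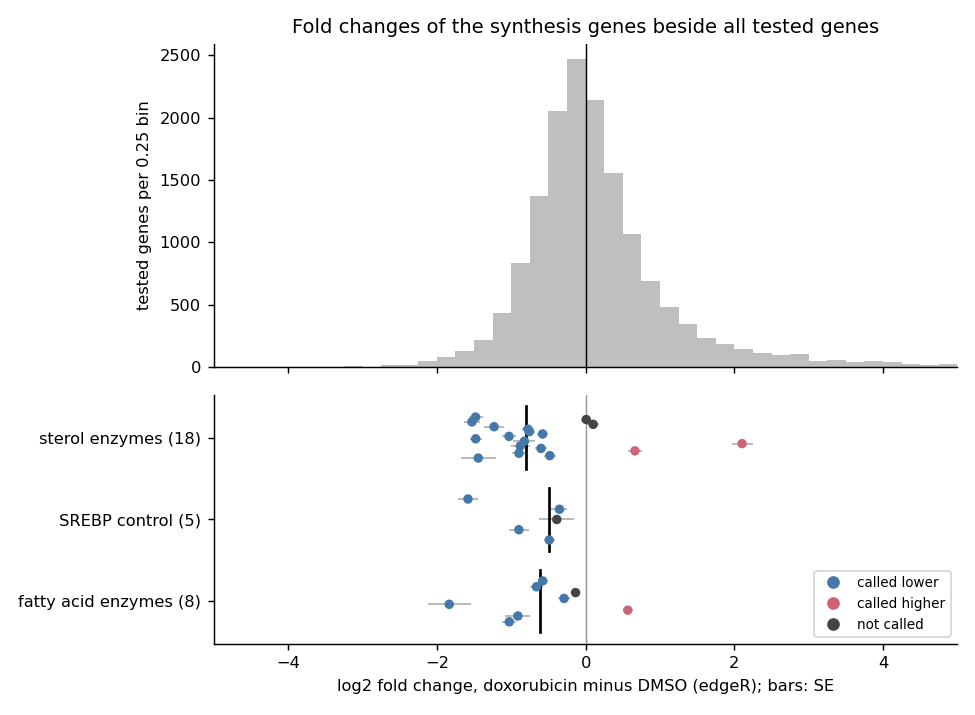
Top: number of tested genes (vertical axis) by log2 fold change, doxorubicin minus DMSO, with the median as a black line; 194 tested genes above 5 lie outside the axis. Bottom: log2 fold change of each sterol, SREBP control and fatty acid gene with its SE, coloured by call, and the median of each group in black; the medians are -0.80, -0.49 and -0.62.

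Doxorubicin replicate 1 was the lowest doxorubicin library in 13 of the 14 sterol enzymes that fell and in all 4 SREBP control genes that fell, but in 3 of the 6 fatty acid enzymes that fell. Over the 18 sterol enzymes its median difference from the mean of the other doxorubicin libraries was -0.23 on the log2 scale, and the mean difference was -0.24. Over the 8 fatty acid enzymes the median difference was 0.0008 and the mean -0.16. Of these genes, 4 lay below and 4 above the mean of the other doxorubicin libraries. SCD and FADS2 were among those below. Over all 15358 tested genes the median difference was -0.0058. Other libraries also differed in these genes: doxorubicin replicate 3 was above the mean of its group's other libraries in 26 of 31 members (median 0.15), and DMSO replicate 2 was below in 28 (median -0.11). DMSO replicate 3 was above in 23 members (median 0.07), and in 17 of the 18 sterol enzymes (median 0.12). Without doxorubicin replicate 1, 14 sterol enzymes fell and 2 rose, their median was -0.70, and 7 fatty acid enzymes fell, since ACLY then passed (adjusted p = 0.034). Without it the adjusted p of DHCR7 was 2.7e-10 and its log2 fold change -1.23. That of SCD was -1.62 (adjusted p = 0.0015). Leaving out another library instead raised the adjusted p to as much as 0.018 for SCD, 0.018 for DHCR7 and 0.019 for FADS2. Across all alternatives the highest adjusted p of SCD was 0.048, so its call was kept narrowly.

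Levels can be compared between genes only per length. Per kilobase of exon, ACLY was the highest member in DMSO (130.2 ± 3.71 CPM), then SCD (98.6 ± 19.7) and FASN (78.4 ± 6.54). The ranges of SCD and FASN over libraries overlapped in DMSO. INSIG1 (50.7 ± 8.36) and FDFT1 (50.3 ± 2.67) followed and did not differ beyond their spread. The lowest were CYP51A1 (2.32 ± 0.264) and TM7SF2 (2.26 ± 0.607), whose ranges overlapped. The place of CYP51A1 is uncertain, because 82.2% of its exon bases lie within other genes.

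After doxorubicin ACLY was still highest (119 ± 2.03 CPM per kilobase), followed by FASN (52.5 ± 1.59) and then ACAT2 (40.2 ± 1.73), FADS1 (34.9 ± 0.293) and FDFT1 (33.7 ± 2.95). SCD moved from the 2nd to the 7th place (27.6 ± 7.70) and INSIG1 from the 4th to the 13th (16.9 ± 2.06). Nearby places after doxorubicin are not exact, because ranges over libraries overlapped. The range of SCD (18.8 to 32.5) overlapped those of PMVK (26.6 to 31.3) and EBP (16.7 to 22.4), in the 6th and 12th places. The range of INSIG1 (15.3 to 19.2) overlapped those of EBP and DHCR7 (10.0 to 18.6). FADS1 and FDFT1 overlapped too. TM7SF2 moved from the 31st to the 23rd place. ACAT2 and PMVK, whose levels were not called different, moved from the 9th and 16th places to the 3rd and 6th. The places of ACAT2 are uncertain, because 52.3% of its exon bases lie within other genes.

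Other genes of lipid metabolism were taken from 7 lists. In the list of SREBP processing and sterol-sensing degradation, 7 of 10 genes fell and 3 were not called, and the median log2 fold change was -0.28. ERLIN1, an endoplasmic reticulum protein that assists the degradation of INSIG1 and other sterol-regulated proteins, fell 2.19-fold from 142 ± 4.80 to 64.7 ± 3.50 CPM. RNF145, a ubiquitin ligase, fell 1.70-fold from 83.8 ± 1.79 to 49.2 ± 0.652 CPM. The list moved in the same direction as most members but by less.

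Of 14 genes of the isoprenoid branches that leave the mevalonate route, 6 fell, 3 rose and 5 were not called, with a median of -0.21. PDSS1, which makes the side chain of coenzyme Q, fell 1.60-fold from 14.6 ± 1.11 to 9.13 ± 1.18 CPM, and 10.5% of its exon bases lie within ABI1 on the opposite strand. The genes that rose were RABGGTA and FNTA, subunits of protein prenyltransferases, by 1.72-fold and 1.46-fold, and DHDDS, of dolichol synthesis, by 1.27-fold. The subunit genes FNTB and RABGGTB, which pair with FNTA and RABGGTA, were not called. CHURC1-FNTB on the same strand overlaps 42.1% of the exon bases of FNTB, so the count of FNTB is uncertain.

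Of 10 genes of sterol conversion and storage, 7 were tested, of which 3 fell, 1 rose and 3 were not called. LBR fell as above, HSD3B7, of bile acid synthesis, fell 1.87-fold from 4.44 ± 0.362 to 2.36 ± 0.443 CPM, and NCEH1, a cholesterol ester hydrolase, fell 1.16-fold (adjusted p = 0.029). The call of NCEH1 was lost without DMSO replicate 2 (adjusted p = 0.16) or 3 (0.078) and without doxorubicin replicate 1 (0.072) or 2 (0.083). Another gene on the opposite strand overlaps 64.6% of the exon bases of HSD3B7, so its decrease is uncertain. FAXDC2, which belongs to the same hydroxylase family as MSMO1 and SC5D, had 5.59, 4.11 and 3.37 CPM in DMSO and 67.6, 53.7 and 57.1 CPM in doxorubicin. It rose 13.6-fold (adjusted p = 5.9e-11), while MSMO1 and SC5D fell.

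Of 18 tested genes of sterol transport and of the oxysterol receptor LXR, 10 rose and 8 were not called, with a median of 0.38. ABCA1, the exporter of cellular cholesterol, had 4.92, 1.67 and 1.16 CPM in DMSO and 116, 95.5 and 93.5 CPM in doxorubicin, and rose 39.7-fold (log2 fold change 5.31 ± 0.41 SE, adjusted p = 0.00022, edgeR). DMSO replicate 1 was the highest DMSO library, and without it the increase was 71.0-fold. MYLIP, a ubiquitin ligase that degrades lipoprotein receptors, rose 3.65-fold from 5.92 ± 1.25 to 21.6 ± 4.70 CPM. The genes of LXR itself, NR1H2 and NR1H3, were among those not called (log2 fold changes -0.01 and 0.05), as were STARD4, a sterol carrier (-0.31), and TMEM97, a sterol-binding membrane protein (-0.23).

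Of 20 tested genes of further fatty acid synthesis and elongation, 9 fell, 4 rose and 7 were not called. HACD4, a dehydratase of elongation, fell 2.90-fold from 13.0 ± 1.62 to 4.47 ± 0.193 CPM. The genes that rose were ELOVL3, an elongase, from 0.276 ± 0.247 to 4.12 ± 0.686 CPM (14.8-fold, and 29.1-fold without DMSO replicate 1), FADS3 as above, HSD17B12, a reductase of elongation, by 1.92-fold and SCD5 by 1.43-fold. Of the exon bases of HSD17B12, 21.6% lie within 3 other genes. SCD5 is the second human stearoyl-CoA desaturase, and it rose from 63.8 ± 6.58 to 90.9 ± 4.02 CPM while SCD fell.

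Of 20 tested genes that activate fatty acids or build glycerolipids, 9 rose, 5 fell and 6 were not called, and 6 of the increases were at least 2-fold. LPIN3, a phosphatidate phosphatase, had 8.55, 10.3 and 8.62 CPM in DMSO and 69.9, 70.8 and 72.2 CPM in doxorubicin, and rose 7.75-fold (adjusted p = 1.4e-13), with 13.5% of its exon bases within an opposite-strand gene of 36 counts. PLIN2, a coat protein of lipid droplets, rose 2.62-fold from 59.0 ± 4.71 to 154 ± 30.8 CPM. The genes that fell were ACSL4 and AGPAT3, by 1.999-fold and 2.11-fold, and AGPAT4, LPIN1 and PLIN3 by 1.56-fold or less.

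Of 20 genes of fatty acid oxidation, 8 rose and 8 fell, with a median of 0.02. CPT1A, the carnitine transferase that admits fatty acids to mitochondria, rose 2.32-fold from 11.8 ± 3.37 to 27.5 ± 3.37 CPM, and ACADS, a short-chain dehydrogenase, fell 2.25-fold from 11.4 ± 0.881 to 5.06 ± 0.290 CPM. This list thus had no common direction. The lists are described by their counts beside the background of 32.0% lower and 32.7% higher, and no list was tested against another.

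**Figure D4:**
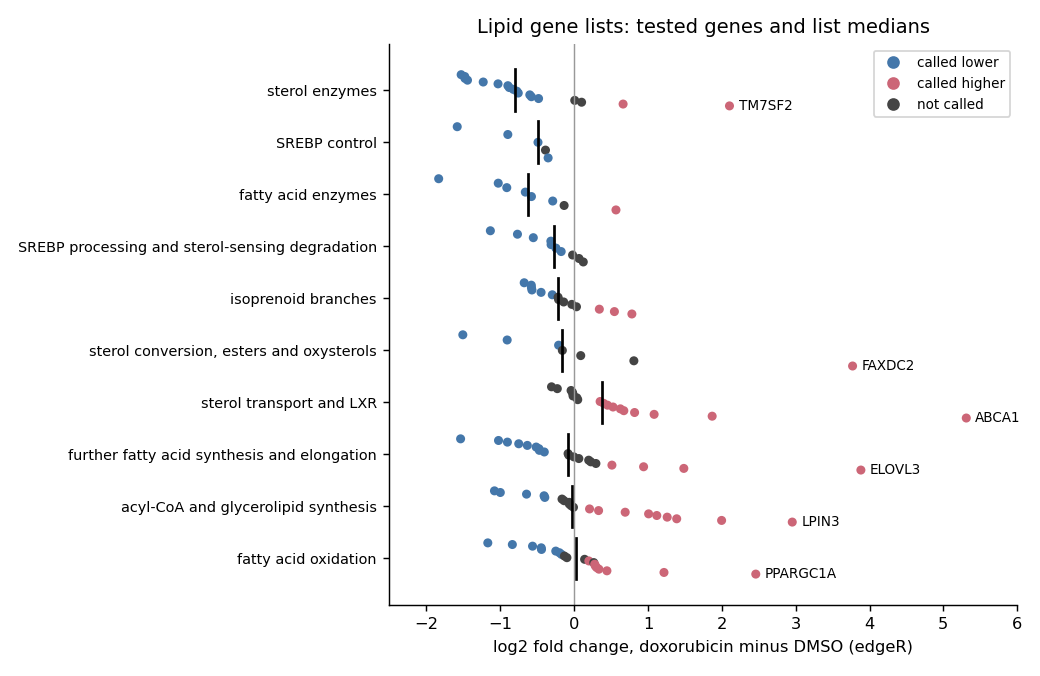
Log2 fold change, doxorubicin minus DMSO (horizontal axis), of every tested gene of the 3 member groups and 7 other lipid lists, coloured by call, with each list's median as a black bar; the highest gene is named where it exceeds 2. The sterol, SREBP control and fatty acid groups have medians of -0.80, -0.49 and -0.62, and the sterol transport list has a median of 0.38.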

How the data were processed

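Poly(A)-selected RNA was sequenced from unstranded TruSeq v2 libraries, per the labels' protocols. What the authors deposited is a single featureCounts table of unnormalized counts with a column for each library, per the file headers. STAR, SAMtools, Subread, featureCounts and GRCh38 (hg38) are named in the submitters' processing notes; versions and settings, including how reads in overlapping genes were counted, are not given in the sources used here. Summed exon length is also from the deposited table. Columns of other samples numbered 0.

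Symbols came from a name table for 57717 of 58299 gene IDs and otherwise from GENCODE 29 (GRCh38). The test was run in edgeR 4.0.16 under R 4.3.3 with filterByExpr (minimum count 10, minimum total 15), TMM, robust dispersion, quasi-likelihood F test without covariates, two-sided, Benjamini-Hochberg over 15358 genes. The procedure was also run on simulated counts, with far fewer changed genes than were called here. That run gives no error rate for these data. The SE was derived from each fold change and its F statistic (log2 fold change over the root of F). Count ratios used a pseudocount of 0.5.

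Alternatives were DESeq2 1.42.0, other scalings and filters, a replicate block and each library left out. All 31 members are named; from the other lists, the 2 called genes with the largest change, given an average log2 CPM of 1 or more, and every gene of a direction with 5 or fewer calls. Genes mentioned beyond that were chosen after their values were seen. The members and lists were chosen with earlier results of these data known.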

Additional observations from a re-analysis of the deposited data

How the results depend on the processing

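The counts of called sterol, SREBP control and fatty acid members stayed within 1.5 times their values, and the medians of these 3 groups kept their sign, under DESeq2, RLE, upper-quartile and library-total scaling, both other filters, the removal of the 50 most abundant genes, the replicate block and each library left out. The sterol enzymes gave 14 lower and 2 higher in all of these, and their median ranged from -0.82 to -0.70 with 1 library left out. The fatty acid median then ranged from -0.67 to -0.55. The median of all tested genes moved from -0.0013 to 0.37 with no filter and 0.11 with DESeq2, which both tested more low-count genes, and to between -0.0080 and 0.040 otherwise. Among the other lists, the medians near 0 of fatty acid oxidation (-0.083 to 0.063) and of acyl-CoA and glycerolipid synthesis (-0.038 to 0.016) changed sign, as did that of sterol conversion with no filter (0.03). With no filter 2 genes of sterol transport were called lower, and 1 was with DESeq2, without doxorubicin replicate 2 and without doxorubicin replicate 3. NCEH1 also lost its call with library totals (adjusted p = 0.061). ACAT2, which was not called, changed sign with no filter (-0.021), with DESeq2 (-0.00030) and without DMSO replicate 1 (-0.026), DMSO replicate 2 (-0.040) or doxorubicin replicate 3 (-0.014), and ranged from -0.040 to 0.073 with 1 library left out. Its sign is therefore not determined. ACLY passed with no filter (adjusted p = 0.033), DESeq2 (0.041), the 50 most abundant genes left out (0.048) and without doxorubicin replicate 1 (0.034). The cause was not tested.

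With the replicate block, 9920 genes were called against 9934, and SREBF1 passed (adjusted p = 0.046), so 5 SREBP control genes fell. The labels do not say that the numbers pair samples, and same-numbered libraries correlated at 0.05, -0.02 and 0.03 in their deviations from the group means. The block left the mean change of the 3 count ratios as it was, by construction (TM7SF2 to LBR, 3.64). With 3 libraries a group, small changes such as that of PMVK cannot be told from none.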
